A study of Oncorhynchus mykiss with 18 samples.

Results

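The DSB hotspots of 2 rainbow trout that have 1 *Prdm9* allele in common were compared: RT-52 (*Prdm9* 1/2) and TAC-3 (*Prdm9* 2/6), which share allele 2. The hotspots were all those in the deposited DMC1-SSDS peak lists of the 2 individuals, 1924 in RT-52 and 209 in TAC-3, or 2133 of the 2749 DMC1 hotspots of the series. A hotspot was called shared when the central 400 bp of an RT-52 hotspot and of a TAC-3 hotspot overlapped by at least 1 bp, and 44 pairs met this rule. Both fish were of the INRA-AUT strain and the tissue was the testis, at maturation stage IV in RT-52 and stage III in TAC-3. Each list comes from 2 replicates of 1 fish. The TAC-3 replicates and the first RT-52 replicate were precipitated with the DMC1-R1 antibody, and the second RT-52 replicate with DMC1-GP. The third fish of the series, TAC-1 (*Prdm9* 1/5, stage III, DMC1-R1 antibody), shares allele 1 with RT-52 and no allele with TAC-3, and is used here only as a reference. With 1 fish per genotype and 1 merged list per fish, the genotype, stage, antibody and individual cannot be told apart, and no value has a replicate error. For the same reason no difference between the lists was tested, and the intervals given below cover counting error or the spread over hotspots only.

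PRDM9 is a meiotic histone methyltransferase whose array of zinc fingers binds a DNA sequence motif, so that each allele, with its own array, marks its own set of sites. At the bound sites PRDM9 deposits both H3K4me3 and H3K36me3, and the DSBs that initiate meiotic recombination form there. The broken ends are resected to single-stranded 3′ tails that the meiosis-specific recombinase DMC1 covers. DMC1-SSDS, which sequences the single-stranded DNA bound by DMC1, therefore maps DSB hotspots in the cells that are repairing DSBs at the time of sampling. In whole testis, fewer cells in that stage and less DMC1 per cell cannot be told apart.

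The value given with each hotspot, which the lists do not name, was taken as a strength on a scale of its own list. It ran from -180 to 2872 in RT-52 (median 93, 3 hotspots below 0) and from 13 to 1769 in TAC-3 (median 58). Values were therefore only ranked within a list, and ranks are given as percentiles, where a low percentile stands for a strong hotspot. Of the RT-52 hotspots, 1869 were on the 32 assembled chromosomes and 55 on unplaced sequences; of the TAC-3 hotspots, these numbers were 197 and 12. The read depth behind a single value is not part of the lists.

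RT-52 had more hotspots than TAC-3 on each of the 32 chromosomes, and its density was lower on longer chromosomes. Over the 2232 Mb of the chromosomes there were 0.837 hotspots per Mb in RT-52 (95% Poisson interval 0.800 to 0.876) and 0.0882 in TAC-3 (0.0764 to 0.101), a ratio of the 2 counts of 9.49. Across the 32 chromosomes, density and length gave a Pearson's r of -0.51 and a Spearman's rho of -0.51 in RT-52, and of -0.12 and -0.09 in TAC-3. These correlations describe the chromosomes of 1 fish each, and their points share the same list and depth. Without chromosome Y, r was -0.53 in RT-52 and -0.06 in TAC-3. When the RT-52 list was cut to its highest-valued hotspots, as many as TAC-3 has, r in RT-52 was -0.34, between the values of the 2 full lists. In the higher-valued 50% of the TAC-3 list, r was 0.07, so that the sign of the TAC-3 relation is not fixed by these data.

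The RT-52 densities were highest on chromosome Y, with 119 hotspots or 2.50 per Mb (2.07 to 2.99), chromosome 20, with 81 or 1.74 per Mb (1.38 to 2.16), and chromosome 22, with 86 or 1.64 per Mb (1.31 to 2.02). They were lowest on chromosome 13, with 27 or 0.368 per Mb (0.243 to 0.536), chromosome 12, with 50 or 0.486 per Mb (0.361 to 0.641), and chromosome 6, with 51 or 0.505 per Mb (0.376 to 0.664). The intervals of the 3 densest chromosomes did not overlap those of the 3 sparsest, but these 6 were picked by the same densities and the intervals are not adjusted for that. In TAC-3 the densest were chromosome 32, with 8 hotspots or 0.191 per Mb (0.0827 to 0.377), chromosome 2, with 19 or 0.183 per Mb (0.110 to 0.286), and chromosome Y, with 8 or 0.168 per Mb (0.0724 to 0.331). The sparsest in TAC-3 were chromosome 31, with 1 hotspot or 0.0227 per Mb (0.000575 to 0.126), chromosome 11, with 2 or 0.0232 per Mb (0.00281 to 0.0838), and chromosome 1, with 3 or 0.0313 per Mb (0.00646 to 0.0916). The interval of chromosome 2 lay above those of chromosomes 11 and 1 and overlapped that of chromosome 31, whereas the intervals of chromosomes 32 and Y overlapped all 3 of the lowest. As these 6 chromosomes were also picked by their densities, an order among them was not established at this depth. The number of RT-52 hotspots for each TAC-3 hotspot ranged from 4.67 on chromosome 17 to 61 on chromosome 31. As a share of its own list, no chromosome had Wilson intervals that lay apart between the 2 fish (0 of 32). With 1 to 19 TAC-3 hotspots a chromosome, the TAC-3 intervals were wide, for example 6.26% to 14.6% on chromosome 2. The overlap therefore does not show that the shares were alike.

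**Figure D1:**
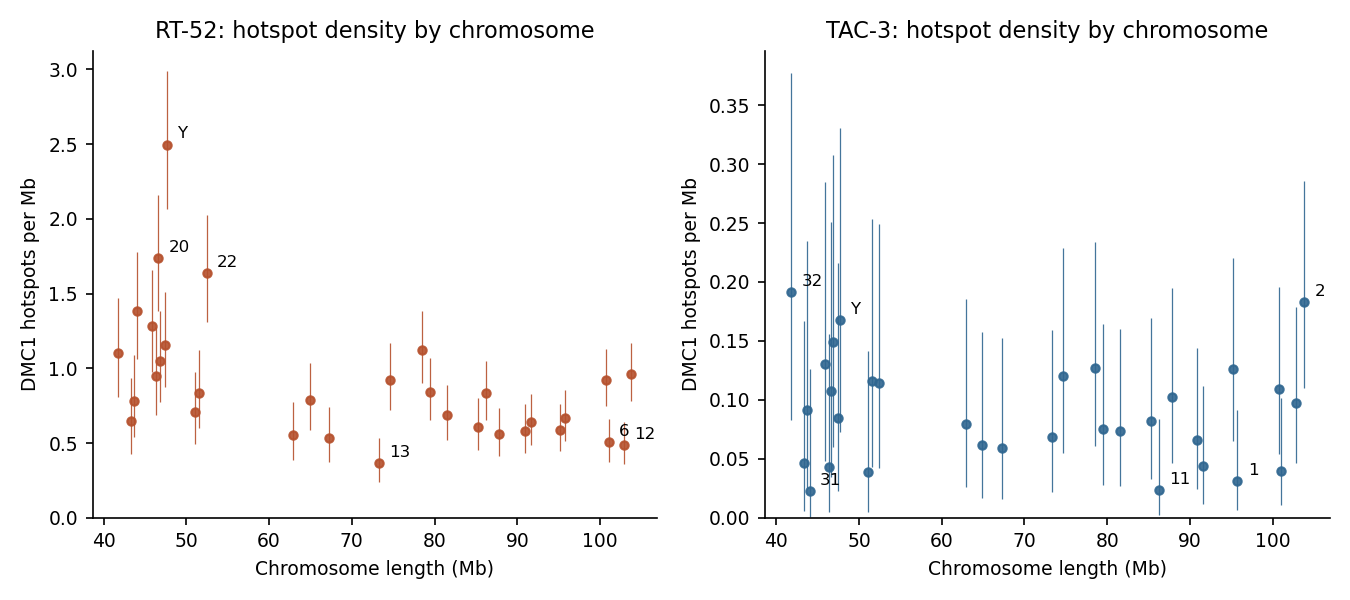
DMC1 hotspots per Mb (y axis, a different range in each panel) against chromosome length in Mb (x axis) for the 32 chromosomes of RT-52 (left) and TAC-3 (right). Bars are 95% Poisson intervals and the 3 highest and 3 lowest chromosomes are named. RT-52 densities lie between 0.368 and 2.50 and are highest among chromosomes under 60 Mb, whereas the TAC-3 intervals are wide and overlap between short and long chromosomes.

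With the ends taken as the outer 5 Mb, the lower RT-52 density of long chromosomes was seen in their interior and not at their ends. The median distance of an RT-52 hotspot to the nearest end was 5.89 Mb (5.65 to 6.28), just past this cut. The interior of a longer chromosome also reaches further from the ends. Distance to the end and chromosome length are therefore not separated by this split. In the outer 5 Mb at each end, RT-52 had 2.04 hotspots per Mb (1.83 to 2.28) on the 16 shortest chromosomes (41.8 to 67.2 Mb) and 2.73 (2.48 to 3.0) on the 16 longest (73.3 to 103.8 Mb), so that the ends of the longer chromosomes were the denser ones. In the interior the order was the opposite, with 0.833 per Mb (0.764 to 0.906) on the shortest and 0.449 (0.412 to 0.487) on the longest chromosomes. In TAC-3 the ends gave 0.200 per Mb (0.137 to 0.282) on the shortest and 0.313 (0.232 to 0.412) on the longest, and the interior 0.0652 (0.0470 to 0.0882) and 0.0575 (0.0451 to 0.0724), with intervals that overlapped in both cases. The 2 fish placed close shares of their hotspots near the ends: 40.9% in RT-52 (Wilson 95% interval 38.7 to 43.1) and 41.6% in TAC-3 (35.0 to 48.6) lay in the outer 5 Mb, which hold 14.3% of the chromosome length. In the outer 10% of the length at each end the shares were 57.2% (54.9 to 59.4) and 51.3% (44.3 to 58.2). The TAC-3 share in the outer 5 Mb was 28.6% (17.8 to 42.4) for hotspots in common with TAC-1 alone. It was 45.3% (36.1 to 54.8) for those found in no other fish. The strongest 10% of the RT-52 hotspots were nearer to the ends than the list as a whole, with 64.9% of them in the outer 5 Mb (57.7 to 71.4). Of the 42 shared hotspots on chromosomes, 20 or 47.6% did so (33.4 to 62.3). The side of the chromosome midpoint that held more hotspots was the same in RT-52 and TAC-3 on 19 of 32 chromosomes, the opposite on 6, and tied in at least 1 fish on 7. Across chromosomes, the densities of the 2 fish gave an r of 0.45 and a rho of 0.42, or 0.34 and 0.37 without chromosome Y. RT-52 and TAC-1, which share allele 1, gave an r and a rho of 0.71 with chromosome Y included. The shared hotspots count in both lists, which by itself adds to the likeness of densities and of sides.

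Hotspots of both fish were unevenly spaced, and in RT-52 many distances were short and a few very long. The median distance between the centres of consecutive hotspots was 271 kb in RT-52 (order-statistic 95% interval 249 to 294, n = 1837 distances) and 3898 kb in TAC-3 (2830 to 5799, n = 165). The means were 1161 kb and 10524 kb. The mean was thus far above the median in each list, and the ratio of the SD to the mean of the distances was 3.15 in RT-52 and 1.37 in TAC-3. In RT-52, 82 distances were under 10 kb and 454, or 24.7%, under 100 kb. In TAC-3, 3 were under 10 kb and 8, or 4.85%, under 100 kb. An exponential distribution of the same mean would put 8.25% of the distances under 100 kb in RT-52 and 0.946% in TAC-3. Its medians would be 805 kb and 7294 kb. The departure from this reference was not tested, and in TAC-3 the share under 100 kb rests on 8 distances. Cut on chromosomes to as many hotspots as TAC-3, the strongest RT-52 hotspots had a median distance of 1211 kb (1034 to 1449, n = 167) against a mean of 7644 kb. At equal numbers the median distance of these strongest RT-52 hotspots was below that of TAC-3, with intervals that did not overlap, while the means were closer. These RT-52 hotspots were chosen by strength, and strong RT-52 hotspots lay nearer to the chromosome ends.

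The shortest distance in each list was between peaks that overlapped. In RT-52 the closest centres were 683 bp apart, on chromosome 1 at chr1:670599-672430 (value 160) and chr1:671501-672894 (value -180, the lowest of the list). In TAC-3 they were 1892 bp apart, on chromosome 32 at chr32:41467549-41468754 (value 13, the lowest of the list) and chr32:41467396-41472691 (value 129). In both fish the lowest value of the list thus belonged to a peak that overlapped a stronger one, in TAC-3 one that lay wholly inside it. The longest stretches with no hotspot were 43.8 Mb on chromosome 12 in RT-52 and 72.9 Mb on chromosome 8 in TAC-3.

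**Figure D2:**
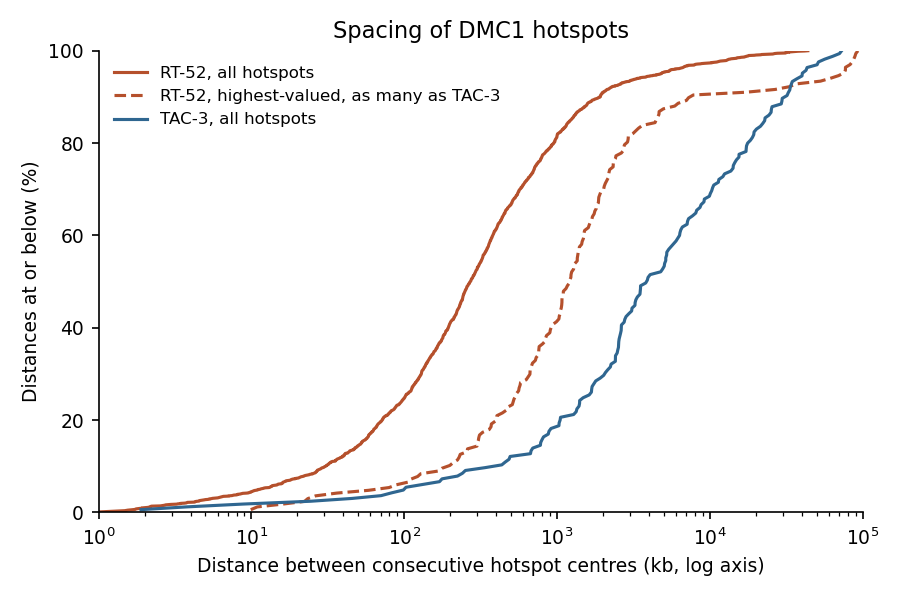
Cumulative share of the distances between consecutive hotspot centres (y axis, %) against distance in kb (x axis, log axis) for all RT-52 hotspots, for the highest-valued RT-52 hotspots, as many as TAC-3 has, and for all TAC-3 hotspots. Medians are 271, 1211 and 3898 kb, and the curve of the strongest RT-52 hotspots runs left of the TAC-3 curve over most of its range.

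Over all hotspots the peak widths of the 2 fish were close, and in both fish stronger peaks were wider. The median width was 1836 bp in RT-52 (1806 to 1866, n = 1924) and 1654 bp in TAC-3 (1584 to 1842, n = 209), and the 2 intervals overlapped. The means were in the other order, 2059 bp ± 771 in RT-52 and 2113 bp ± 1148 in TAC-3 (SD over hotspots), and so were the medians without hotspots that overlap a TAC-1 hotspot, at 1806 and 1838 bp. In RT-52 the median width was 2426 bp in the strongest 25% of the list, 1921 and 1678 bp in the next 2 bins of 25%, and 1526 bp in the weakest. In TAC-3 the corresponding medians were 1895, 1879, 1746 and 1550 bp. Spearman's rho between width and value was 0.55 over the RT-52 hotspots and 0.24 over those of TAC-3. Widths over 4 kb were found at 12 of 209 TAC-3 hotspots (5.74%) and 65 of 1924 RT-52 hotspots (3.38%), a difference that rests on few TAC-3 hotspots and was not tested. The widest TAC-3 hotspot measured 9006 bp, at chr2:15324988-15333993, inside *LOC110535793*, and shared rank 4.5 with another hotspot of value 306. The widest RT-52 hotspot measured 7132 bp, at chr16:77998598-78005729, inside *flna*, the gene of the actin cross-linker filamin A, with a value of 417 at percentile 8.63. Neither of these was shared.

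The 44 shared hotspots were 2.29% of the RT-52 list and 21.1% of the TAC-3 list. Each of the 44 TAC-3 hotspots overlapped 1 RT-52 hotspot, and they were spread over 20 chromosomes, with at most 5 on one (chromosome 2) and 2 pairs on unplaced sequences. No pair lay close to the limit of the rule. The most distant pair inside it had centres 331 bp apart, and the closest pair outside it had centres 540 bp apart, at chr16:76101532-76106127 in TAC-3 (percentile 4.31) and chr16:76102284-76104295 in RT-52 (percentile 15.2). Including that pair, 4 of the unshared TAC-3 hotspots had an RT-52 centre within 2 kb, and these 4 were also the ones that overlapped an RT-52 hotspot at full length. Over all 159 unshared TAC-3 hotspots on sequences with an RT-52 hotspot, the median distance to the nearest RT-52 centre was 414 kb (211 to 651), with 8 of them within 10 kb and 39 within 100 kb. Only 2 of the 44 pairs were also in the TAC-1 list, whereas 55 of the 165 unshared TAC-3 hotspots were.

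Shared hotspots were mostly at the strong end of the longer RT-52 list and in all parts of the shorter TAC-3 list. In RT-52 their median percentile was 10.8 (5.41 to 24.4, quartiles 2.75 and 36.6), and 22 of 44 were in the top 10% of the list, which holds 9.93% of all RT-52 hotspots. In TAC-3 their median percentile was 46.1 (38.3 to 64.4, quartiles 29.8 and 71.9), and 3 of 44 were in the top 10%, which holds 9.57% of all TAC-3 hotspots. With each list cut into 10 bins of about equal size by rank, 11.5% of the 192 RT-52 hotspots in the strongest bin were shared (7.69 to 16.7), against 0% to 2.08% in the other bins, with upper bounds of at most 5.23%. In TAC-3 the shares of the bins ran from 9.52% to 42.9%, with intervals that overlapped. Among the 10 strongest hotspots of RT-52, 3 were shared, and among the 50 strongest 11; among the 10 strongest of TAC-3, none was (0 of 10), and among the 50 strongest 8. All 3 shared hotspots in the top 10% of the TAC-3 list were in the top 10% of the RT-52 list too.

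**Figure D3:**
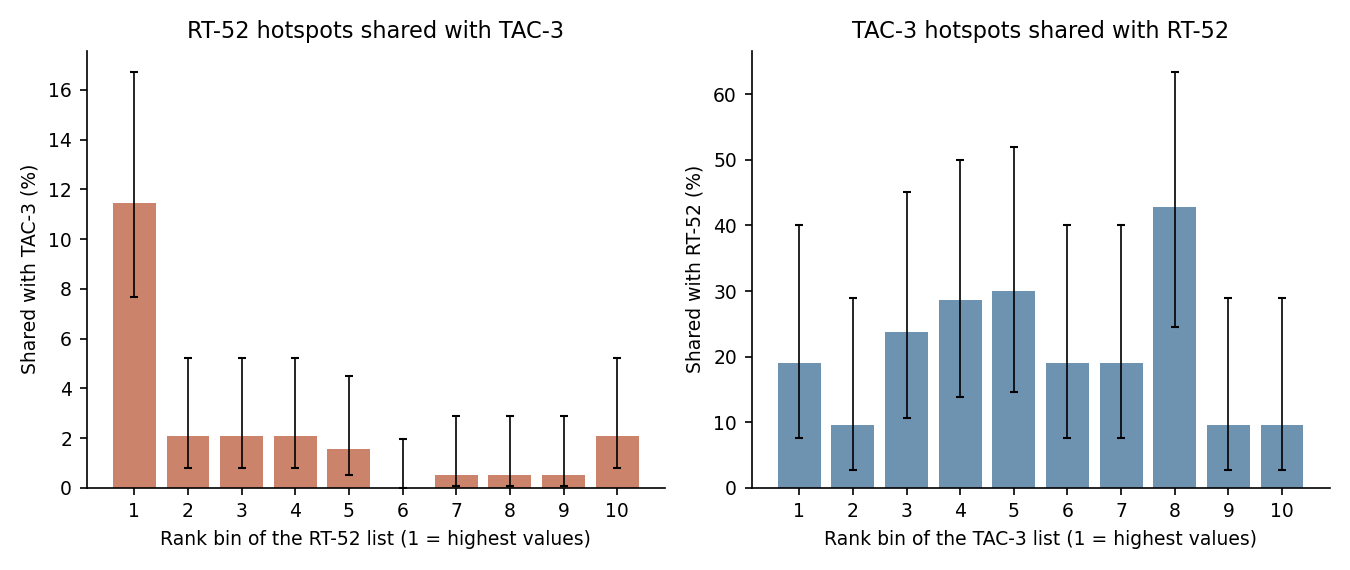
Share of hotspots that are shared with the other fish (y axis, %, with 95% Wilson intervals) in 10 rank bins of the RT-52 list (left, 192 or 193 hotspots a bin) and of the TAC-3 list (right, 20 or 21 a bin), from the highest values (1) to the lowest (10). In RT-52 bin 1 stands at 11.5% and the others at or below 2.08%, whereas in TAC-3 the highest share is in bin 8, at 42.9%, with wide intervals throughout.

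The TAC-3 ranks depend in part on listed peaks that TAC-3 has in common with TAC-1, which carries neither of its alleles. From their strand profile, the paper holds that peaks common to these 2 fish may be artifactual. Of the 42 TAC-3 hotspots in its 2 strongest bins, 24 overlapped a TAC-1 hotspot. Ranked again without the 57 TAC-3 hotspots that did so, an alternative chosen after seeing the data, 42 shared hotspots had a median percentile of 39.6 (33.2 to 60.2) among 152, and 5 were among the 15 hotspots of the top 10%.

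Within the shared set, hotspots that ranked high in one fish tended to rank high in the other, with a Spearman's rho of 0.55 between the 2 ranks (n = 44 sites). The points share their 2 lists, and rho was 0.44 when the hotspots were compared at full length, which adds 4 pairs, and 0.30 in the higher-valued 50% of each list. For 37 of the 44 sites the percentile was lower in RT-52. The lists differ in length, however, and by rank number RT-52 was ahead at 13 sites and TAC-3 at 31. This count is itself set in part by the lengths. The 22 sites outside the 209 highest RT-52 values could only count for TAC-3, whose list has 209 ranks. With the RT-52 list cut to its 209 highest values and ranked again, an alternative chosen after seeing the data, 22 sites remained in it, with a median percentile of 24.9 (14.4 to 53.1) in RT-52 and 37.7 (22.5 to 53.3) in TAC-3. At equal length these intervals overlapped, and the percentile was lower in RT-52 at 13 of the 22 sites and in TAC-3 at 9.

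The strongest shared hotspot by the mean of both percentiles was on chromosome 1, at chr1:3623088-3625947 in RT-52 (value 2523, rank 2 of 1924) and chr1:3623508-3625341 in TAC-3 (value 144, rank 14.5 of 209). Its centre lay just inside *bcl6aa*, a homologue of the transcriptional repressor BCL6, 65 bp from a gene boundary. The next was on chromosome 10 at chr10:85724964-85727977 in RT-52 (value 2104, rank 4) and had value 140 and rank 16 in TAC-3, inside *LOC110513755*. The third, at chr17:88014588-88017225, had value 786 (rank 50) in RT-52 and 132 (rank 17) in TAC-3, inside *LOC110493299*. These 3 were the shared hotspots in the top 10% of both lists.

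The fourth, at chr2:862666-865221 inside *cmc1*, whose product takes part in cytochrome oxidase assembly, had value 766 (rank 54) in RT-52 and 125 (rank 21) in TAC-3. The fifth, at chr24:45241134-45243779, was 58858 bp from the nearest gene, *LOC110503298*, and had value 1555 (rank 7) in RT-52 and 110 (rank 30) in TAC-3. The sixth, at chr32:1652408-1654989, near *klhl38a* of the kelch-like family, had value 804 (rank 48) and 91 (rank 47). For this site the rank number was almost the same in both fish although the lists differ in length, so that its percentiles were 2.49 and 22.5.

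The other 6 of the 12 strongest shared sites fell further down the TAC-3 list. They were chr2:101187595-101190602 inside *LOC110502639* (percentile 2.55 in RT-52, 25.4 in TAC-3), chrY:44363066-44365085 inside *cadm2a*, a gene of a synaptic cell adhesion molecule (0.624 and 30.1), and chr10:6085645-6087866, which lay 65929 bp from *LOC110533286* (7.38 and 28.7). They also included chrY:42619847-42622438 inside *synj1*, the gene of the phosphoinositide phosphatase synaptojanin 1 (6.24 and 31.3), chr2:11258028-11260527 inside *prelid3a* (12.0 and 25.8), and a site on an unplaced sequence (1.56 and 38.3). In all 12 of these sites the percentile was lower in RT-52, whereas by rank number RT-52 was ahead at 6 of the 12. At the *prelid3a* site, rank 230 in RT-52, TAC-3 was ahead by the length of its list alone.

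The sites whose percentile in RT-52 was lowest against that in TAC-3, a gap to which the unequal length of the lists contributes, were at chr2:98619662-98622487 (percentile 6.99 in RT-52, 75.8 in TAC-3), chr1:6033142-6037207 (5.35 and 73.9), and chr20:5239097-5242420 (0.676 and 67.5). The last of these was rank 13 of 1924 in RT-52 and rank 141 of 209 in TAC-3. The percentile was lower in TAC-3, with the largest gaps, at chr12:1154469-1155554 (96.5 in RT-52, 45.2 in TAC-3), chr15:39289559-39291088 (97.0 and 60.3) and chr5:60680-62017 (44.4 and 11.7). The chromosome 15 and chromosome 5 sites were the 2 that TAC-1 also had.

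**Figure D4:**
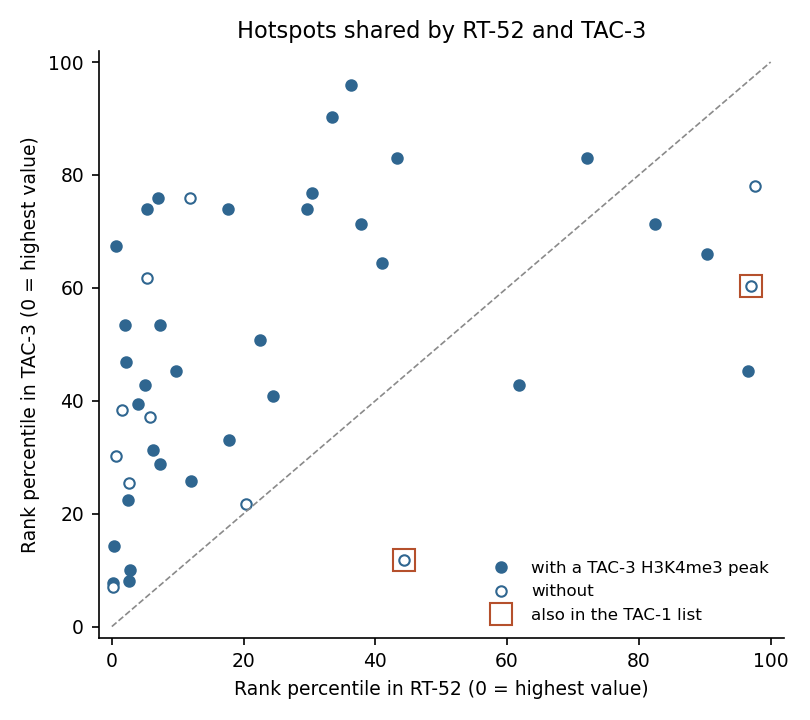
Rank percentile in TAC-3 (y axis) against rank percentile in RT-52 (x axis) for the 44 shared hotspots, where 0 is the highest value of a list and the dashed line marks equal percentiles. Filled points carry a TAC-3 H3K4me3 peak and squares mark the 2 sites that TAC-1 also has. Of the 44 points 37 lie above the line, most of them at the left edge, and the 2 squared points are open and lie below it.

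The centres of shared hotspots lay at short offsets, with no side preferred. The overlap rule keeps only pairs with centres less than 400 bp apart, so that short offsets are in part set by it. The median absolute offset was 83 bp (36 to 124, quartiles 31.5 and 138), and 27 of 44 pairs, or 61.4% (46.6 to 74.3), were within 100 bp. With hotspots compared at full length, the median was 93 bp (58 to 136) over 48 pairs. The signed offset (TAC-3 centre minus RT-52 centre) had a median of -7 bp (-33 to 35) and a mean of 5.91 bp ± 125 (SD, n = 44 sites), with 25 pairs to the left, 18 to the right and 1 at 0. The largest offsets were 331 bp at chr5:93427701-93432070, 316 bp from *insrb*, an insulin receptor gene, 319 bp at chr17:4780848-4783039, and 236 bp at chr5:8685331-8687712 inside *chsy3*, a chondroitin sulfate synthase gene. The smallest were 0 bp at the chromosome 15 site named above, 2 bp at the chromosome 32 site near *klhl38a*, and 5 bp at both chr30:6563242-6565083 and a site on an unplaced sequence. The chromosome 15 site also had the same first and last base in both lists, the only one of the 44 pairs that did.

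TAC-3 peaks were narrower than RT-52 peaks at most shared sites, at 32 of 44, and wider at 11. The median width was 2577 bp in RT-52 (2150 to 2732) and 1961 bp in TAC-3 (1708 to 2130), and the median difference (TAC-3 minus RT-52) was -484 bp (-820 to -108). The gap between the fish was thus larger at shared sites than over the whole lists, where the median widths differed less and their intervals overlapped. In the strongest 25% of the RT-52 list, shared peaks had a median width of 2646 bp (2556 to 3034, n = 29) and unshared peaks one of 2409 bp (2322 to 2468, n = 448). Rank was not held fixed within this bin, as 22 of these 29 shared peaks were in the top 10% of the list. The highest-valued RT-52 hotspots, shared or not and as many as TAC-3 has, had a median width of 2624 bp (2544 to 2730). Shared peaks were thus not shown to be wider at like strength. The part of rank in the difference between the fish was not tested. The widths of the 2 fish were only weakly related from site to site (rho = 0.24, n = 44 sites).

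The site with the narrowest TAC-3 peak for its RT-52 width was chr20:5239097-5242420, 3324 bp wide in RT-52 and 1020 bp in TAC-3, a ratio of 0.307. Next were chr5:93427701-93432070, with 4370 and 1516 bp (0.347), and chr27:41982999-41987332, with 4334 and 1764 bp (0.407). The chromosome 20 and chromosome 5 sites were thus also among those named for their percentile gap and their offset. The ratio was highest at chr12:1154469-1155554, with 1086 bp in RT-52 and 2444 bp in TAC-3 (2.25), at chr7:72769622-72771155, with 1534 and 2112 bp (1.38), and at chr2:11258028-11260527 in *prelid3a*, with 2500 and 3330 bp (1.33). The chromosome 12 and chromosome 7 sites were near the bottom of the RT-52 list, at percentiles 96.5 and 97.7, whereas the chromosome 2 site was not.

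**Figure D5:**
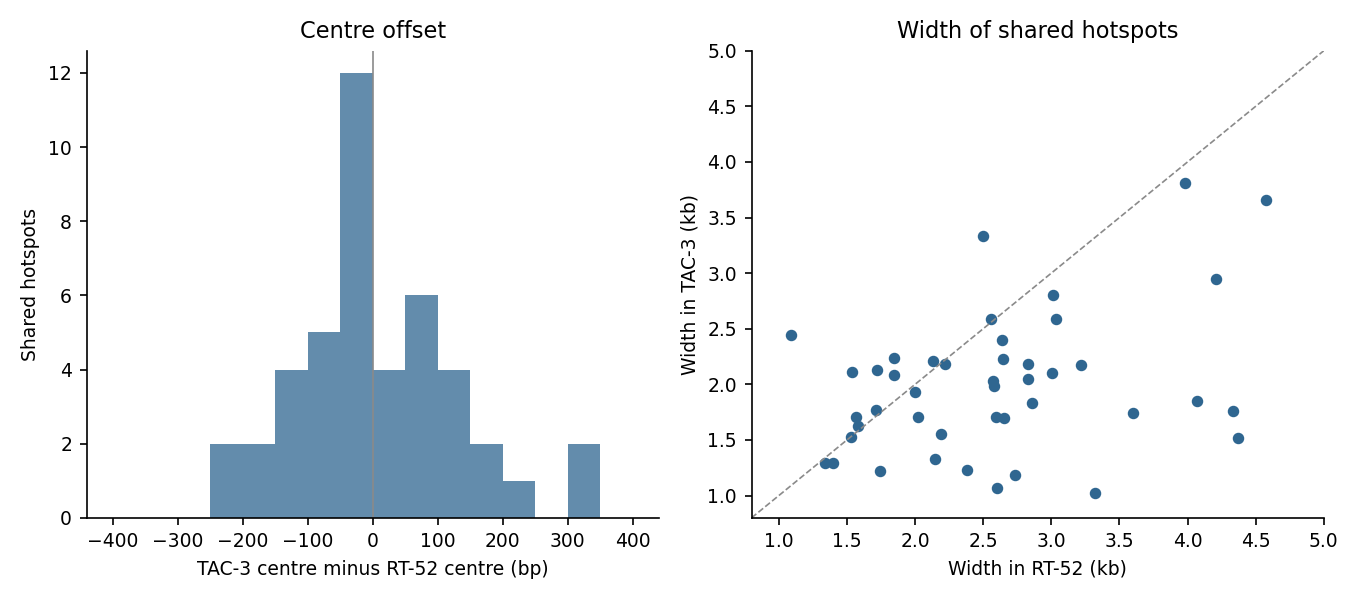
Left, number of shared hotspots (y axis) by centre offset in bp, TAC-3 minus RT-52 (x axis, bins of 50 bp). Right, peak width in TAC-3 (y axis, kb) against width in RT-52 (x axis, kb) for the same 44 sites, with a dashed line at equal widths. Offsets lie between -236 and 331 bp around a median of -7 bp, and 32 of 44 points lie below the line.

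Histone marks were available for TAC-3 but not for RT-52. A TAC-3 H3K4me3 peak overlapped the central 400 bp of 33 of the 44 shared hotspots, or 75% (60.6 to 85.4), against 25.4% of all TAC-3 hotspots and 12.1% (7.99 to 18.0) of the 165 unshared ones. A TAC-3 H3K36me3 peak overlapped that of 24 of 44, or 54.5% (40.1 to 68.3), against 19.6% of all TAC-3 hotspots and 10.3% (6.53 to 15.9) of the unshared ones. All 24 of these shared hotspots had both marks. Taken at the RT-52 centre, 33 shared hotspots had TAC-3 H3K4me3 and 22 had H3K36me3, against 22.9% and 17.3% of all RT-52 hotspots. In TAC-1, which lacks allele 2, 2 of the 44 shared sites had H3K4me3 (4.55%, 1.26 to 15.1) at the TAC-3 centre. TAC-1 H3K36me3 was at 4 of them (9.09%, 3.59 to 21.2). Each TAC-1 mark was at 14 of all 209 TAC-3 hotspots (6.70%, 4.03 to 10.9), so the shared sites were close to the TAC-3 list as a whole. At the RT-52 centre, 0 of 44 shared sites had TAC-1 H3K4me3, against 27.5% of all RT-52 hotspots. For TAC-1 H3K36me3 these shares were 6.82% and 18.6%. Neither of the 2 sites that TAC-1 also had as hotspots carried a TAC-3 mark.

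The H3K4me3 peaks at the marked shared sites were wider than those of the whole TAC-3 list. They were taken because they overlap the central 400 bp of a hotspot, which by itself favours wide peaks and near centres. The peaks at marked unshared hotspots were not compared, so the widths and distances below describe these sites only. The median width of the 33 peaks was 1872 bp (1273 to 2365), against 757 bp (750 to 765) for all 50548 TAC-3 H3K4me3 peaks, and 30 of 33 had a score above the median of that list. The median absolute distance from the centre of the mark was 216.5 bp (151.5 to 322) to the TAC-3 hotspot centre and 171.5 bp (108 to 259) to the RT-52 centre. The mark was closer to the RT-52 centre at 17 of the 33 sites, so that neither list lay nearer to it. The strongest of the marked sites by H3K4me3 score, 1084, was chr10:6085645-6087866, followed by chr30:6563242-6565083 with 1037.

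RT-52 hotspots with the TAC-3 mark were shared more often than the list as a whole, but most of them were not in the TAC-3 list. Of 441 RT-52 hotspots with TAC-3 H3K4me3, 33 or 7.48% (5.38 to 10.3) were shared, against 2.29% of all RT-52 hotspots. The share was 23.9% (15.3 to 35.3) among the 67 of them in the top 10% of the RT-52 list and 4.55% (2.86 to 7.16) among the other 374, where all RT-52 hotspots gave 11.5% and 1.27% (0.840 to 1.91). For the 267 with both TAC-3 marks it was 31.4% (18.6 to 48.0) of 35 and 4.74% (2.67 to 8.29) of 232. TAC-3 H3K4me3 itself was at 34.9% of the hotspots in the strongest of the 10 RT-52 bins and at 10.9% in the weakest. Its share did not fall steadily between them, with 28.5% in bin 7.

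Of the 5 strongest hotspots of each list that the other fish lacked, 1 had a TAC-3 mark. TAC-3 H3K4me3 was at 21.7% of all unshared RT-52 hotspots and 12.1% of all unshared TAC-3 hotspots. For TAC-3 H3K36me3 these shares were 16.5% and 10.3%. These few sites were thus not shown to differ from the other unshared hotspots. In RT-52 the strongest of all, at chr20:1361419-1363776 (value 2872, rank 1), lay inside *LOC110498800*, was also a TAC-1 hotspot, and had both marks in TAC-1 and none in TAC-3. The next 4 unshared RT-52 hotspots were chr16:75981024-75984283 (value 2311), chr21:61257381-61260268 (1742), chrY:5285467-5288050 (1642) and chrY:1970740-1973449 (1511). None of these 4 had a mark of either kind in TAC-1 or TAC-3, and only the last was a TAC-1 hotspot. In TAC-3 the strongest, at chr27:40361013-40362558 (value 1769), lay inside *LOC110508036*, was a TAC-1 hotspot too, and had H3K4me3 in TAC-1 but not in TAC-3. It was followed by chr7:64674591-64675624 (889), chr16:39726203-39732168 (324), and chr2:15324988-15333993 and chr18:67563155-67564714 (306 each). The chromosome 7 and chromosome 18 hotspots were TAC-1 hotspots as well, and of these 5 the one on chromosome 2 alone had TAC-3 H3K4me3.

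TAC-3 hotspots fell into 3 classes by the fish they were shared with. The strand profile of the fragments, which tells a DSB hotspot from other peaks, is not in the lists and was not analysed here. The paper did examine it, and states that the 55 peaks common to TAC-1 and TAC-3 lacked the usual strand asymmetry and may be artifactual. It reports that asymmetry for the hotspots that RT-52 shares with either fish. The peaks in common with TAC-1, which shares no allele with TAC-3, are therefore hotspots here only in the sense that they are listed. TAC-3 H3K4me3 was at 33 of the 44 shared with RT-52, at 20 of the 110 found in no other fish (18.2%, 12.1 to 26.4), and at none of the 55 in common with TAC-1 alone (0 of 55, Wilson interval up to 6.53%). The 3 intervals did not overlap. The 55 were also the narrowest, with a median of 1526 bp (1522 to 1560), against 1724 bp (1602 to 2132) for the 110 and 1961 bp for the shared ones. Shared hotspots were inside an annotated gene at 27 of 42 sites (64.3%, 49.2 to 77.0), close to the 62.5% (60.3 to 64.7) of RT-52 and, with overlapping intervals, to the 56.3% (49.4 to 63.1) of TAC-3.

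The other 2 pairs of fish give a scale for these offsets, widths and ranks. The offsets of all 3 comparisons are bounded by the same overlap rule. RT-52 and TAC-1 gave 169 pairs, with a median absolute offset of 84 bp (67 to 98) and a median width difference (TAC-1 minus RT-52) of -250 bp (-372 to -76). Their median percentile was 20.7 (16.8 to 25.03) in RT-52 and 36.4 (29.5 to 41.7) in TAC-1, and rho between ranks was 0.48. TAC-3 and TAC-1, with no allele in common, gave 57 pairs with a median offset of 16 bp (2 to 34), a median width difference of 0 bp (-2 to 2) and a rho between ranks of 0.74. Of these 57 pairs 14 had the same first and last base in both lists, against 1 of 44 for RT-52 and TAC-3 and 2 of 169 for RT-52 and TAC-1. The 3 comparisons share their lists, and the differences between them were not tested.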

How the data were processed

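The authors processed DMC1-SSDS reads with the hotSSDS pipeline on the USDA_OmykA_1.1 assembly, called peaks with MACS2 2.2.7.1 against an input, filtered them by IDR on pooled replicates, and recentered them. The deposited score of a hotspot is not named in the files and was taken here as its strength. Histone ChIP-seq reads were aligned by the authors using BWA 0.7.17-r1188, who called narrow peaks per replicate, merged those within 1 kb, and kept regions found in both replicates, with the mean MACS2 score deposited. Genotypes came from the study's methods, stage and antibody from the sample labels.

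Here, centres, widths, ranks (ties averaged) and overlaps of the central 400 bp were computed with Python 3.11.15, pandas and SciPy, tested on simulated data and checked against bedtools 2.31.1. Sequence identifiers were matched to chromosome names in a RefSeq table of genes on that assembly by their largest position, and the larger one stood for the length. At their own chromosome, 38.5% or more of the TAC-3 H3K4me3 peaks lay within 1000 bp of a gene boundary, at any other at most 14.2%. Gene positions carry no strand. Intervals are 95% Wilson (shares), Poisson (counts) and order-statistic (medians) intervals. Sites named were the 12 strongest shared hotspots, the extremes of rank gap, offset and width ratio, the closest unshared pair, sites also in TAC-1, and the strongest unshared and widest hotspots. The chromosome 1 and 32 pairs of closest centres, the longest distances and the 2 highest H3K4me3 scores were added after their values were seen. Hotspots and comparisons were chosen with earlier results of these data known. The lists hold no expression values, so the tissue label was not checked.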

Additional observations from a re-analysis of the deposited data

How the results depend on the processing

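Of 89 alternatives to the 16 results, 63 stayed within the interval of the reported value (1.5 times for the number of shared hotspots, 0.1 for correlations), 25 moved and 1 reversed; the causes of the moves were not tested beyond what each setting removes. In the higher-valued 50% of each list, densities were 0.421 per Mb in RT-52 and 0.0435 in TAC-3, median spacings 403 and 8768 kb, and median widths 2180 and 1879 bp. Among these, 21 hotspots were shared, with median percentiles of 4.03 and 28.7 in ranks of the full lists and a rho of 0.30, and the TAC-3 correlation of density with length reversed to 0.07. With the RT-52 list cut to as many hotspots as TAC-3 has, its correlation with length was -0.34, its median spacing 1221 kb (unplaced hotspots counted in the cut) and its median width 2624 bp, and 22 hotspots were shared at median percentiles of 2.70 and 37.7 in ranks of the full lists, or 24.9 in RT-52 when ranked again in the cut list (chosen after seeing the data). Without hotspots overlapping TAC-1, densities were 0.762 and 0.0654 per Mb and the RT-52 spacing 305 kb. By nearest neighbour the median distances were 134 and 2542 kb. The Spearman correlation of the ranks was 0.44 at full length and 0.44 in the central 2 kb. With the higher-scoring 50% of histone peaks, 38.6% of shared hotspots had H3K36me3.

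No paired analysis was possible because the replicates of each individual are pooled in 1 list. Leaving out a replicate was not run for the same reason. The TAC-3 densities of single chromosomes rest on 1 to 19 hotspots each.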

Other observations

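A narrow band of peak widths was more common in TAC-3 and TAC-1 than in RT-52. This band was not planned in advance. It holds the median width of 1526 bp of the TAC-3 hotspots in common with TAC-1 alone, so that a high share of that class in it is no separate result. Widths of 1500 to 1550 bp made up 5.98% of the RT-52 list (5.003 to 7.13), 17.2% of the TAC-3 list (12.7 to 22.9) and 13.1% of the TAC-1 list (10.7 to 16.05). In TAC-3 this band held 21 of the 55 hotspots found in TAC-1 and not in RT-52, or 38.2% (26.5 to 51.4), against 13 of the 110 found in TAC-3 alone and 2 of the 44 shared with RT-52. One of these 2 was the site on chromosome 15 with identical limits in RT-52 and TAC-3, 1530 bp wide, which TAC-1 also had.

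Of the shared hotspots, 7 lay in the lower 50% of the RT-52 list, and 5 of these 7 had a TAC-3 H3K4me3 peak at the RT-52 centre, against 28 of the 37 in the upper 50%. The weakest shared hotspots of RT-52 thus carried the mark at a share of 71.4% (35.9 to 91.8), and the others at 75.7% (59.9 to 86.6). Over all RT-52 hotspots, shared or not, the share in rank bins 6 to 10 ran from 10.9% to 28.5%. The 7 included chr16:77496372-77497941 in *ikbkg*, the gene of the NF-kappaB regulator NEMO, at percentile 72.1, and chr12:8010333-8012052 in *sdad1* at percentile 61.8.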
